A study of Mus musculus with 12 samples.

Results

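The genes described here encode proteins of the lipid droplet surface and the regulators of its main lipase, and they were followed in the kidney cortex of mice that express a constitutively active HIF1α. The set holds 10 genes, taken by symbol from the 37681 Ensembl genes of the deposited count table: Hilpda, G0s2, Pnpla2, Plin1, Plin2, Plin3, Plin4, Plin5, Cidec and Cideb. All 10 were found once in the table, and all 10 passed the filter on low counts that left 19399 genes for testing. The transgenic group (TG+) was 3 TRACK mice, which carry the gamma-HIF1alphaM3 transgene, a mutated and constitutively active HIF1α under the γ-glutamyl transferase promoter that drives expression in renal proximal tubules. The control group (TG-) was 3 wild-type littermates without the transgene. All 6 animals were untreated C57BL/6 males of 18 months, and 1 library was made from a thin outer slice of cortex of each of the 2 kidneys of a mouse. The mice are named by their numbers, 43-29, 43-49 and 43-75 for TG+ and 43-26, 43-50 and 43-76 for TG-. The comparison of TG+ with TG- asks how the active HIF1α changes the transcriptome of the kidney cortex.

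A lipid droplet is a core of triacylglycerol and sterol esters inside a single layer of phospholipid, and the proteins on that layer decide how much of the core is released. Pnpla2 encodes adipose triglyceride lipase (ATGL), which takes the first fatty acid off a triacylglycerol, and Hilpda and G0s2 encode small proteins that bind ATGL and inhibit it. The perilipins (Plin1 to Plin5) coat the droplet, and the CIDE proteins (Cidec, Cideb) promote its growth by droplet fusion and lipid transfer. Hilpda takes its name from its induction in hypoxia, and cytoplasmic lipid is a hallmark of clear cell renal cell carcinoma, the human tumor that TRACK mice are used to model.

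The core sequence bound by HIF is ACGTG or GCGTG, so these letters were searched on both strands of the RefSeq promoter windows (GRCm38.p6, 250 bases before to 50 after a transcript start) of the members. All 10 members had at least 1 window. Of all 32851 windows in the RefSeq set, 43.8% held at least 1 match and 8.93% held 3 or more. Hilpda has 2 windows, whose starts lie at 29272488 and 29272626 on the plus strand of chromosome 6, and together they hold 3 distinct matches. They are shown with the flanking bases, since Hilpda is the member that differed most clearly between the genotypes, and the capitals mark the match.
Hilpda, chr6:29272505-29272529, plus strand: accgcgagccGCGTGctttccgtga
Hilpda, chr6:29272573-29272597, plus strand: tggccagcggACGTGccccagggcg
Hilpda, chr6:29272608-29272632, plus strand: ggttcggtacGCGTGcgcagtctcc
The matches around positions 29272505 and 29272573 fall in an annotated exon of Hilpda, downstream of its first start, and the match around 29272608 falls in no exon, just upstream of its second start.

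Plin2 and G0s2 are printed beside Hilpda because they are the coat protein of droplets outside fat and the other lipase inhibitor. Both genes are on the minus strand, and the sequences are given on that strand. CACGC in the first line is GCGTG read on the opposite strand, and ACGTG in the next line overlaps a further match on the opposite strand by 4 bases.
Plin2, chr4:86670131-86670155, minus strand: ttggggttccCACGCcctcatcccc
Plin2, chr4:86670048-86670072, minus strand: ctgggctatcACGTGgctcggaggc
G0s2, chr1:193273316-193273340, minus strand: cacagcagggGCGTGcactactcgt
The windows of Pnpla2, Plin1, Plin3 and Plin4 hold no match, and those of Plin5, Cidec and Cideb hold GCGTG and no ACGTG. A match is only these letters in this window.

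The libraries held between 21888584 and 33704850 reads counted to genes, and the sums of the 2 kidneys held between 48052131 and 60506785 per mouse. The Hif1a row itself did not tell the genotypes apart, at 86.3 to 109 normalized CPM (read counts scaled to a common library size) in TG+ and 103 to 107 in TG-. Whether reads of the transgene are counted in that row was not tested. Proximal tubule markers were abundant in every mouse, with the summed level of the 12 genes of the list between 28400 and 31800 CPM in TG+ and between 37900 and 40200 in TG-, and 7 of the 12 were lower in TG+ at an adjusted p below 0.05, with a log2 fold change above 0 for 0 of the 12. Macrophage markers summed to 188 to 212 CPM in TG+ and 109 to 147 in TG-, with 7 of 10 higher at that threshold and 10 above 0. Hepatocyte markers summed to 612 to 888 CPM in TG+ and 45.5 to 64.9 in TG-, most of it Apoc3 in TG+ and Ttr in TG-. Of the 6 that were tested, 3 were higher at that threshold (Apoc3, Apoa1 and Ttr), while Alb lay between 6.16 and 12.3 CPM in all 6 mice. Of 9 adrenal cortex markers, Cyp11b1, Cyp11b2 and Cyp21a1 had 0 reads in every library, and 2 of the 4 that were tested were higher (Mc2r and Akr1b7). In a slice of tissue, more cells of a type cannot be told apart from more RNA per cell.

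A set of libraries stood apart by transcripts of adipocytes, which bears directly on several of the members. Adipoq, which encodes the fat cell hormone adiponectin, had 161 and 209 reads in the 2 kidneys of TG+ mouse 43-49, 235 in kidney 2 of TG+ mouse 43-75 and 91 in kidney 1 of TG- mouse 43-50. Their other kidneys had 4 reads (43-75) and 8 reads (43-50), and the 6 libraries of 43-29, 43-26 and 43-76 had 0. Over the 12 adipocyte genes of the list, of which 10 were tested, the summed level ran from 50.3 to 109 CPM in TG+ and from 46.6 to 74.1 in TG-, and 1 gene (Fabp4) passed the test, higher in TG+. Of these 10, 9 had a log2 fold change above 0, with a median of 1.66. Lipe and Fabp4 of that list are also counted among the lipid genes below. The values of the members are therefore given with all 12 libraries and again without the 4 libraries that had more than 50 Adipoq reads, a choice made after the data were seen, which leaves 2 TG+ against 3 TG- mice.

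At the threshold of the study, a fold change above 2 or below 0.5 with an adjusted p below 0.01, 1 of the 10 genes was higher in TG+ (Hilpda) and 0 were lower, beside 3.77% of all genes tested called higher and 0.211% called lower. With an adjusted p below 0.05 at any fold, 1 was higher (Hilpda) and 2 were lower (Pnpla2 and Cideb), beside 15.4% higher and 10.9% lower over all genes. When libraries were scaled by their size alone, which moved the median of all genes from 0.01 to 0.13 on the log2 scale, 2 were higher (Hilpda and Plin3) and 1 was lower (Cideb). The levels of the 3 TG+ and the 3 TG- mice did not overlap for 3 of the 10 (Hilpda, Pnpla2 and Cideb), beside 44.2% of all genes tested. In what follows, levels of 1 gene are normalized CPM per mouse, log2 fold changes are TG+ over TG- with their standard errors (SE), and adjusted p-values are those of edgeR's quasi-likelihood fit, adjusted after Benjamini and Hochberg over all 19399 genes. With 3 mice against 3, an exact permutation test cannot give a p below 0.1.

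**Figure D1:**
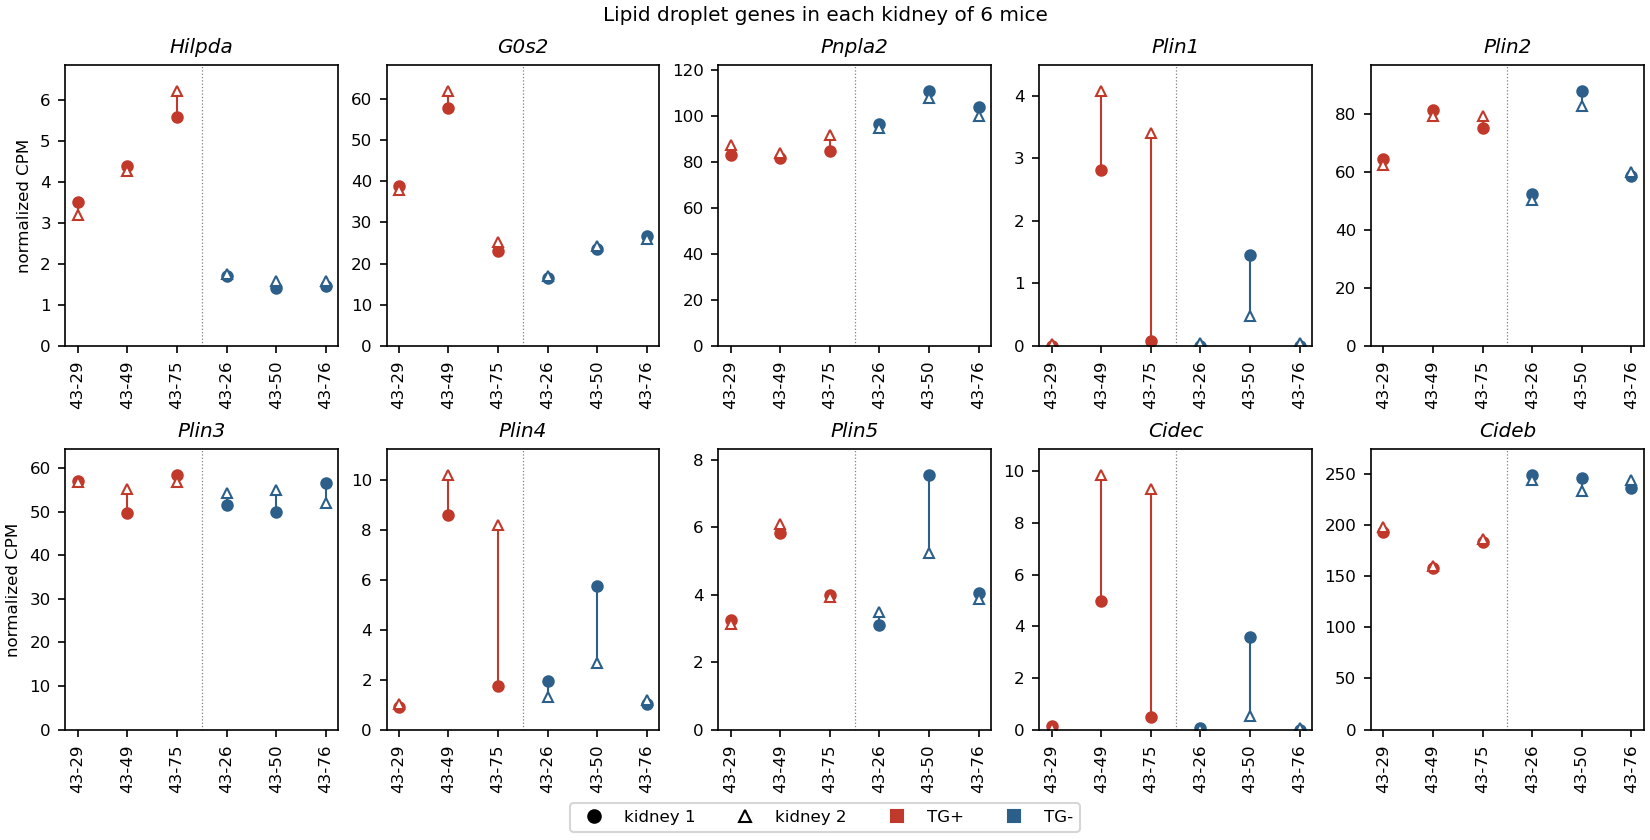
Normalized CPM of the 10 genes (vertical axis, linear from 0) in the 2 kidneys of each of 6 mice (horizontal axis), with a line joining the kidneys of a mouse. The TG+ mice (red) lie above the TG- mice (blue) for Hilpda and below them for Pnpla2 and Cideb, and the kidneys of 43-75 lie far apart for Plin1, Plin4 and Cidec.

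Among the inhibitors of ATGL, Hilpda rose and G0s2 did not pass the test. Hilpda (ENSMUSG00000043421, chromosome 6, 29272488 to 29275446 in GRCm38) was at 3.34 CPM in 43-29, 4.32 in 43-49 and 5.89 in 43-75, against 1.73 in 43-26, 1.49 in 43-50 and 1.51 in 43-76. Every TG+ mouse was above every TG- mouse, and the TG- mice lay much closer to each other (1.58 ± 0.135, SD, n = 3) than the TG+ mice did (4.52 ± 1.29, SD, n = 3). Hilpda was 2.86-fold higher in TG+, a log2 fold change of 1.52 (SE 0.22, 95% interval 1.01 to 2.02, adjusted p = 0.00241). The gene is a sparse transcript, with 36 to 45 reads in each TG- library and 79 to 153 in each TG+ library. The 2 kidneys of a mouse nevertheless differed by at most 0.15 on the log2 scale. Without TG- mouse 43-50 the adjusted p was 0.0116, and without TG- mouse 43-76 it was 0.0145, both short of the threshold of the study. The log2 fold change stayed between 1.27 and 1.68 over the fits that left out 1 mouse each. Macrophage markers rose in the same comparison, with a median log2 fold change of 0.69 over the 10 genes. Their part in the higher Hilpda was not tested.

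Hilpda was also higher in TG+ where adipocyte transcripts were absent or few. Its level was 3.51 and 3.19 CPM in the kidneys of 43-29, which had no Adipoq read, and 5.58 CPM in kidney 1 of 43-75, which had 4. In kidney 1 of TG- mouse 43-50, with 91 Adipoq reads, it was 1.42 CPM. Without the 4 libraries rich in Adipoq, the log2 fold change was 1.43 (SE 0.24, adjusted p = 0.00665), with library levels of 3.19 to 5.58 CPM in TG+ and 1.46 to 1.76 in TG-. Over the 12 libraries, 2 per mouse, the Pearson correlation of Hilpda with Adipoq was 0.49. The part of adipocytes in the level of Hilpda was not tested.

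G0s2 (ENSMUSG00000009633, chromosome 1, 193272161 to 193273217) was at 38.3, 59.6 and 24.2 CPM in 43-29, 43-49 and 43-75, against 16.8, 23.9 and 26.4 in 43-26, 43-50 and 43-76. TG+ mice 43-29 and 43-49 were above all TG- mice, while 43-75, the mouse with the most Hilpda, was below TG- mouse 43-76. The log2 fold change was 0.87 (SE 0.31, 95% interval 0.16 to 1.58) and did not pass (adjusted p = 0.0733). It was 1.12 without 43-75 (adjusted p = 0.0203) and 0.48 without 43-49 (adjusted p = 0.19), so these mice decide its size. Without the libraries rich in Adipoq it was 0.46 (adjusted p = 0.215). G0s2 overlaps Lamb3 on the other strand, and since the handling of strand is not given in the sources used here, reads of the overlap cannot be assigned. Lamb3 was at 0.962 to 2.56 CPM, far below G0s2, and was itself higher in TG+ (log2 fold change 0.85, adjusted p = 0.0262).

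The lipase was slightly lower. Pnpla2 (ENSMUSG00000025509, chromosome 7, 141455198 to 141460743) was at 85.5, 82.7 and 88.2 CPM in the TG+ mice 43-29, 43-49 and 43-75, and at 95.8, 110 and 102 in the TG- mice 43-26, 43-50 and 43-76. All TG+ mice were below all TG- mice, and the level fell by 16.7% (log2 fold change -0.26, SE 0.06, adjusted p = 0.0206). The size was the same without the libraries rich in Adipoq (-0.27, adjusted p = 0.0268). The call was lost with scaling by library size alone (-0.14, adjusted p = 0.0968), without 43-50 (-0.21, adjusted p = 0.0611) and without 43-76 (-0.27, adjusted p = 0.0622). Proximal tubule markers fell in the same comparison, with a median log2 fold change of -0.55 over the 12 genes, and their part in the lower Pnpla2 was not tested.

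Set against the lipase within each mouse, both inhibitors had a higher ratio in every TG+ mouse than in any TG- mouse. Pnpla2 was lower in every TG+ mouse, which by itself raises these ratios, and the level of G0s2 itself overlapped between the groups. The ratio of Hilpda to Pnpla2, taken from RPKM as deposited (reads scaled by transcript length and library size), was 0.304, 0.402 and 0.515 in 43-29, 43-49 and 43-75, against 0.142, 0.107 and 0.117 in 43-26, 43-50 and 43-76. The difference of the log2 ratios was 1.72, with SDs of 0.38 in TG+ and 0.21 in TG- (exact permutation test, two-sided p = 0.1, the smallest it allows). The ratio of G0s2 to Pnpla2 was 6.7, 10.8 and 4.1 in the TG+ mice against 2.62, 3.26 and 3.86 in the TG- mice. Here the nearest mice, 43-75 and 43-76, almost met, although the groups did not overlap (difference of the log2 ratios 1.06, exact permutation test, two-sided p = 0.1). Leaving out 1 mouse moved this difference between 0.71 and 1.41, and that of Hilpda to Pnpla2 between 1.53 and 1.91. The levels of these ratios depend on the length used. By CPM per kilobase of annotated exons, Hilpda to Pnpla2 was 0.107 to 0.183 in TG+ and 0.0371 to 0.0496 in TG-, and G0s2 to Pnpla2 was 0.952 to 2.5 and 0.608 to 0.896. A fixed gene length cancels from the differences of the log2 ratios, which were 1.74 and 1.06 by CPM.

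**Figure D2:**
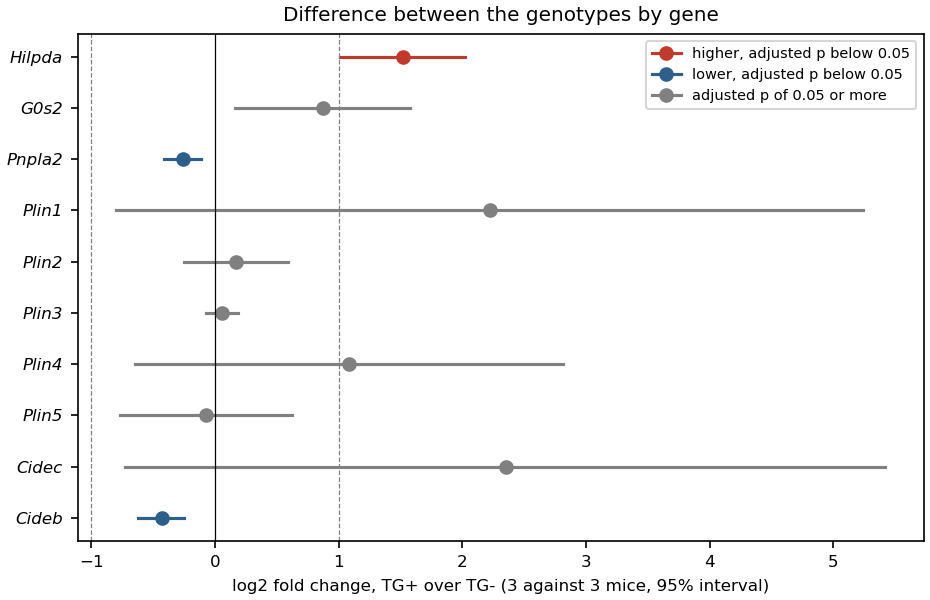
Log2 fold change of each of the 10 genes, TG+ over TG-, from the fit on 3 against 3 mice (points) with its 95% interval (lines), and with dashed lines at a 2-fold change. Hilpda (1.52) lies to the right of 0, Pnpla2 (-0.26) and Cideb (-0.43) lie to the left, and the intervals of Plin1, Plin4 and Cidec are wide and include 0.

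The perilipins that the kidney cortex expresses most did not pass the test. Plin2 (ENSMUSG00000028494, chromosome 4, 86648386 to 86670060), the coat protein of droplets in most cells outside fat, was at 63.4 CPM in 43-29, 80.1 in 43-49 and 77.1 in 43-75, against 51.2 in 43-26, 85.6 in 43-50 and 59.3 in 43-76. The highest mouse of all was the TG- mouse 43-50, and the lowest was the TG- mouse 43-26. The log2 fold change was 0.17 (SE 0.18, adjusted p = 0.541), and the 95% interval of -0.25 to 0.59 leaves room for a rise of moderate size as well as for none. The kidneys of a mouse differed by at most 0.09 on the log2 scale, so the spread of Plin2 lay between the mice. Without 43-50 the log2 fold change was 0.41 (adjusted p = 0.0544), without 43-26 it was 0.02 (adjusted p = 0.949), and without the libraries rich in Adipoq it was 0.10 (adjusted p = 0.733).

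Plin3 (ENSMUSG00000024197, chromosome 17, 56277476 to 56292873), a perilipin that is found in the cytosol and moves to young droplets, differed little between the mice. It was at 56.8, 52.2 and 57.6 CPM in the TG+ mice 43-29, 43-49 and 43-75 and at 52.9, 52.3 and 54.3 in the TG- mice 43-26, 43-50 and 43-76. The groups overlapped, and the log2 fold change was 0.06 (SE 0.06, 95% interval -0.07 to 0.19, adjusted p = 0.451). With scaling by library size alone it was 0.18 (adjusted p = 0.0372), and without the libraries rich in Adipoq 0.09 (adjusted p = 0.294).

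Plin5 (ENSMUSG00000011305, chromosome 17, 56111601 to 56117596), a perilipin of tissues that oxidize fatty acids, which binds ATGL, was at 3.17, 5.94 and 3.96 CPM in 43-29, 43-49 and 43-75 and at 3.29, 6.53 and 3.95 in 43-26, 43-50 and 43-76. In each group the mouse with the most Plin5 (43-49 and 43-50) was also the one with the most Plin2, and the one with the most Adipoq. The log2 fold change was -0.07 (SE 0.30, 95% interval -0.77 to 0.62, adjusted p = 0.884), and it was -0.22 (adjusted p = 0.522) without the libraries rich in Adipoq. The sign turned without 43-50 (0.27), without 43-29 (0.10) and with scaling by size alone (0.05), none of which passed.

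The perilipins of fat cells, Plin1 and Plin4, and with them Cidec, were high in the libraries with adipocyte transcripts, in both genotypes, and did not pass the test. Plin1 (ENSMUSG00000030546, chromosome 7, 79720218 to 79732903), the coat protein of adipocyte droplets, had 84 and 109 reads in the kidneys of 43-49, 2 and 84 in those of 43-75, 46 and 12 in those of 43-50, and at most 1 in each of the other 6 libraries. Per mouse this was 0.0202, 3.4 and 1.71 CPM in the TG+ mice 43-29, 43-49 and 43-75, against 0.0195, 1.02 and 0.0205 in the TG- mice 43-26, 43-50 and 43-76. A TG+ mouse was thus as low as the lowest TG- mice, and the log2 fold change of 2.22 had an SE of 1.30 (adjusted p = 0.249). Leaving out 1 mouse moved it between 1.23 (without 43-49) and 6.27 (without 43-50), and without the libraries rich in Adipoq the gene was too low to be tested.

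Cidec (ENSMUSG00000030278, chromosome 6, 113424634 to 113435760), which drives droplet fusion in fat cells, had 149 and 264 reads in the kidneys of 43-49, 13 and 229 in those of 43-75 and 114 and 13 in those of 43-50. It had at most 3 reads in each of the other 6 libraries. Per mouse it was at 0.101, 7.28 and 4.82 CPM in TG+ and 0.0585, 2.22 and 0.0409 in TG-, in the same order of mice. The log2 fold change was 2.35 (SE 1.33, adjusted p = 0.233), and it was 0.73 (SE 1.11, adjusted p = 0.679) without the libraries rich in Adipoq. Leaving out 1 mouse moved it between 1.62 and 6.29, the latter without 43-50 (adjusted p = 0.0584). Within 43-75, the kidney with 235 Adipoq reads and the kidney with 4 differed by 3.95 on the log2 scale for Cidec and by 4.30 for Plin1, far more than the 0.15 for Hilpda.

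Plin4 (ENSMUSG00000002831, chromosome 17, 56100591 to 56109803), the remaining perilipin typical of fat, had a low level where Adipoq was absent, 20 to 51 reads per library, and 256, 273, 201 and 183 reads in the 4 libraries rich in Adipoq. Per mouse it was at 0.97, 9.33 and 4.9 CPM in TG+ and 1.64, 4.39 and 1.11 in TG-. The log2 fold change was 1.08 (SE 0.75, adjusted p = 0.326), and it turned to -0.42 (adjusted p = 0.518) without those libraries. Without 43-49 it was 0.29 (adjusted p = 0.807) and without 43-50 it was 1.89 (adjusted p = 0.161). Plin4 overlaps Hdgfl2 on the other strand, whose level of 23.6 to 27.4 CPM was well above that of Plin4, and reads of their overlap cannot be assigned.

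**Figure D3:**
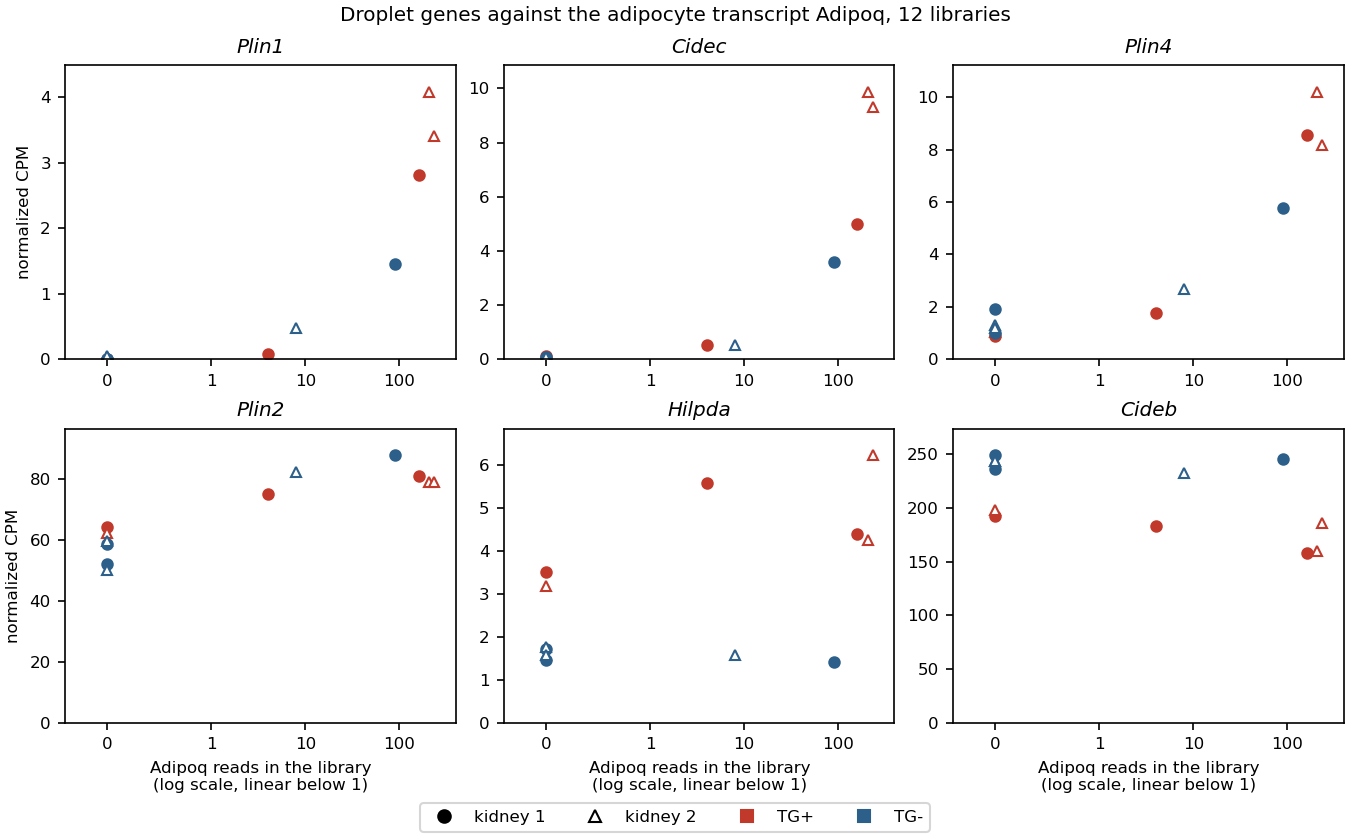
Normalized CPM of Plin1, Cidec, Plin4, Plin2, Hilpda and Cideb (vertical axes, linear from 0) against the Adipoq reads of the same library (horizontal axis, log scale, linear below 1), with 1 point for each of 12 libraries, 2 per mouse. Plin1, Cidec and Plin4 are highest in the 4 libraries with 91 to 235 Adipoq reads, whereas all TG+ libraries lie above all TG- libraries for Hilpda and below them for Cideb.

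Cideb fell. Cideb (ENSMUSG00000022219, chromosome 14, 55754050 to 55758458), the CIDE protein of liver, where it acts in droplet growth and in the loading of lipoproteins with lipid, was at 195 CPM in 43-29, 158 in 43-49 and 184 in 43-75, against 247 in 43-26, 240 in 43-50 and 240 in 43-76. All TG+ mice were below all TG- mice, and the 3 TG- mice were nearly equal (242 ± 3.74, SD, n = 3). The level fell by 25.9% (log2 fold change -0.43, SE 0.08, 95% interval -0.62 to -0.25, adjusted p = 0.00675), which is a smaller change than the 2-fold of the study's threshold. The kidneys of a mouse differed by at most 0.08 on the log2 scale. Without the libraries rich in Adipoq the log2 fold change was -0.35 (adjusted p = 0.00584), and leaving out 1 mouse moved it between -0.51 and -0.36 with adjusted p-values up to 0.0267. Cideb overlaps Nop9 on the other strand, which lay at 21.8 to 24.6 CPM and did not pass the test (log2 fold change -0.06, adjusted p = 0.52). As for Pnpla2, the proximal tubule markers moved the same way, and their part in the lower Cideb was not tested.

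Levels of different genes are compared by RPKM as deposited, as the mean of the 2 kidneys, and again as CPM per kilobase of annotated exons, an alternative added after the data were seen. The 2 scales differ because the lengths behind the deposited RPKM, which are not given, are not those of the annotation. Against the median gene, the RPKM of Pnpla2 implies a length 3.17 times its annotated exons, and that of Plin3 and Plin1 only 0.435 and 0.207 times. By RPKM, Cideb was the highest of the 10 transcripts in TG- mice (74.6 ± 1.2 RPKM, SD, n = 3), followed by G0s2 (26.9 ± 5.97) and Plin3 (25 ± 0.446), which did not differ beyond their spread. Plin2 (9.59 ± 2.61) and Pnpla2 (8.26 ± 0.557) came next and overlapped, and so did Plin5 (1.17 ± 0.415) and Hilpda (1 ± 0.0825). Plin4, Plin1 and Cidec were the lowest, with means of 0.414, 0.196 and 0.167 RPKM and overlapping ranges. By RPKM in TG+ mice, Cideb (53.9 ± 5.58) and G0s2 (47.8 ± 20.9) overlapped. There Hilpda, at 2.03 to 3.59 RPKM, lay above Plin5, at 0.796 to 1.49 RPKM, without overlap. Per kilobase of exons, Cideb was again first in TG- mice (163 ± 2.51 CPM per kilobase), but Pnpla2 (34 ± 2.34) lay above G0s2 (25.7 ± 5.7), and Plin2 (18.6 ± 5.12) lay above Plin3 (14 ± 0.272). Hilpda in TG+ mice, at 3.02 to 5.34 CPM per kilobase, was above Plin5, at 1.52 to 2.85, on this scale too. The order of Pnpla2, G0s2, Plin2 and Plin3 thus depends on the length used.

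The perilipin mRNA of the cortex was mostly Plin3 and Plin2 in both genotypes. By RPKM, Plin3 made up 65.7% ± 6.31 (SD, n = 3) of the summed RPKM of Plin1 to Plin5 in TG+ and 69.1% ± 6.73 in TG-. Plin2 made up 25.2%, 28.5% and 27.5% in 43-29, 43-49 and 43-75, and 22.5%, 31.3% and 24.6% in 43-26, 43-50 and 43-76. The groups overlapped, with means of 27.1% ± 1.68 in TG+ and 26.1% ± 4.6 in TG-. The difference of 0.95 percentage points ran from -0.88 to 3.53 when 1 mouse was left out. Per kilobase of exons Plin2 was instead the larger share, 53.7% ± 1.5 in TG+ and 52.1% ± 5 in TG-, and Plin3 made up 38% ± 5.11 and 40.5% ± 6.99, and the groups overlapped on this scale as well. The share of Plin1 reached 4.44% in 43-49 and was 0.0846% in 43-29 by RPKM, and 1.75% and 0.0125% per kilobase of exons. The sum itself was 38.8 ± 2.55 RPKM in TG+ and 36.3 ± 3.35 in TG-, a difference smaller than the SDs.

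**Figure D4:**
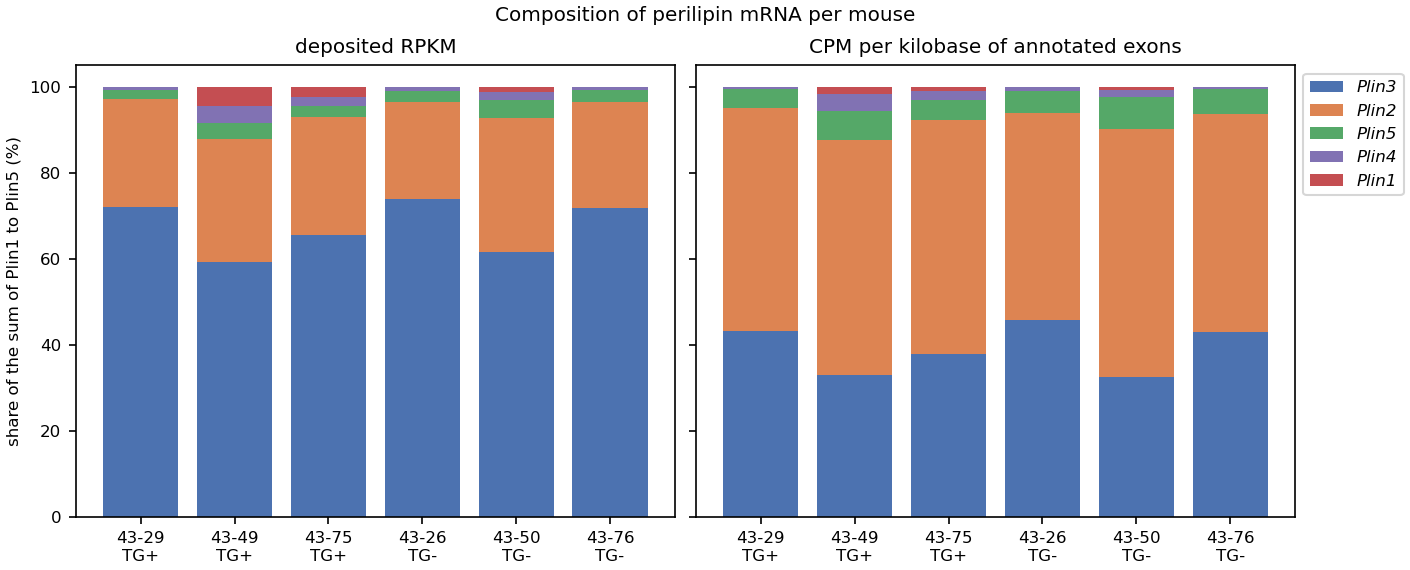
Share of each perilipin in the sum of Plin1 to Plin5 (vertical axes, percent) in the 3 TG+ and the 3 TG- mice, as stacked bars that start at 0, by deposited RPKM (left) and by CPM per kilobase of annotated exons (right). Plin3 holds 59.4% to 74% of every bar on the left and 32.6% to 45.9% on the right, and the shares of Plin1 and Plin4 are visible mainly in 43-49, 43-75 and 43-50.

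The other genes of droplet metabolism were read from 4 lists, and their median log2 fold change is set beside that of all genes tested, 0.01, and their counts beside the 15.4% of all genes called higher and the 10.9% called lower at an adjusted p below 0.05. In the main fit, the counts of risers in the first 3 lists lay near their share and the counts of fallers lay above theirs. In the list of fatty acid uptake and binding, the risers lay above their share and the fallers near theirs. Proximal tubule markers fell in the same comparison, and their part in the fallers was not tested. Of the 16 genes of triacylglycerol and sterol ester synthesis, 2 rose and 4 fell (adjusted p below 0.05 at any fold), with a median of -0.03, and with scaling by size alone 3 rose and 1 fell. The risers were the acyltransferases that make sterol esters. Soat2 lay at 0.89 to 0.987 CPM in TG+ and 0.266 to 0.403 in TG- (log2 fold change 1.44, SE 0.21, adjusted p = 0.0028, the only gene of the list past the threshold of the study), and Soat1 changed by 0.55 on that scale (adjusted p = 0.00134). Over the fits without 1 mouse, the adjusted p of Soat2 reached 0.0138. Mogat1, which acylates monoacylglycerol, fell by 0.59 on the log2 scale (adjusted p = 0.0135, and 0.0598 without the libraries rich in Adipoq), and Lpin3, Gpat4 and Agpat1 fell by 0.30, 0.26 and 0.25. The calls of Lpin3, Gpat4 and Agpat1 held in 1, 1 and 3 of the 6 fits without 1 mouse and were all lost with scaling by size alone. Dgat1 and Dgat2, which perform the last step of triacylglycerol synthesis, had log2 fold changes of -0.06 and -0.21 (adjusted p = 0.484 and 0.0655). The most abundant gene of the list, Agpat3, had -0.12 (adjusted p = 0.174), and 0.00 with scaling by size alone.

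Of the 8 genes of lipolysis outside the members, 1 rose and 3 fell, with a median of -0.17, and with scaling by size alone 1 rose and 1 fell. Pnpla3, a close relative of ATGL, was at 0.627 to 1.52 CPM in TG+ and 0.175 to 0.473 in TG- (log2 fold change 1.70, SE 0.42, adjusted p = 0.0216), a call that was lost without 43-26, 43-49, 43-75 or 43-76. The esterase Aadac fell by 0.46 on the log2 scale (adjusted p = 0.00182). Lipa, the lysosomal acid lipase and the most abundant of the list, fell by 0.36 (adjusted p = 0.0391), with an adjusted p of up to 0.0974 when 1 mouse was left out and of 0.123 with scaling by size alone. Abhd5, which encodes the activator of ATGL, fell by 0.17 (adjusted p = 0.0478), a call that held in 0 of the 6 fits without 1 mouse and was lost with scaling by size alone (-0.05).

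Of the 20 genes of droplet formation and other droplet surface proteins, 18 were tested (Cidea and Hsd17b13 were too low), 3 rose and 4 fell, with a median of -0.16. Hsd17b11, a droplet-resident dehydrogenase and the most abundant of the list, fell from 424 to 480 CPM in TG- to 231 to 289 in TG+ (log2 fold change -0.84, SE 0.09, adjusted p = 7.95e-04). Mettl7a1, Ldah and Aup1, which encode other proteins of the droplet surface, fell by 0.47, 0.37 and 0.20 on the log2 scale, the call of Aup1 holding in 1 of the 6 fits without 1 mouse and not with scaling by size alone (-0.08, adjusted p = 0.257). The risers were Lpcat2 (0.77, a call that held in 2 of the 6 fits) and Lpcat1 (0.53), enzymes of phosphatidylcholine remodelling, and Vps13c (0.57), a lipid transfer protein. Bscl2, which encodes the droplet assembly protein seipin, had -0.17 (adjusted p = 0.0742).

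Of the 19 genes of fatty acid uptake and binding, 18 were tested (Slc27a6 was too low), 7 rose and 2 fell, with a median of 0.19. Macrophage markers rose in the same comparison, with a median of 0.69, and their part in these risers was not tested. Fabp5 and Fabp1, which encode cytosolic fatty acid binding proteins, passed the threshold of the study. Fabp5 was at 6.08 to 8.29 CPM in TG+ and 0.718 to 0.778 in TG- (log2 fold change 3.31, SE 0.16, adjusted p = 1.60e-05), and Fabp1 at 1.01 to 1.67 and 0.37 to 0.648 (1.39, SE 0.27, adjusted p = 0.00864, and up to 0.0347 without 1 mouse). The fatty acid transporter Cd36 was abundant, at 889 to 1250 CPM in TG+ and 535 to 627 in TG- (log2 fold change 0.91, adjusted p = 0.0019). Fabp4, a gene of adipocytes, endothelium and macrophages, changed by 0.81 (adjusted p = 0.00523), and in 43-29, with no Adipoq read, it was at 29.1 CPM against 20.3 to 21.3 in TG-. Without the libraries rich in Adipoq its log2 fold change was 0.46 (adjusted p = 0.00321). The remaining risers, Gpihbp1, Vldlr and Acsl4, changed by 0.63, 0.31 and 0.29, with the calls of Gpihbp1 and Acsl4 each holding in 1 of the 6 fits without 1 mouse. Lipoprotein lipase (Lpl), which frees fatty acids from circulating lipoproteins, fell by 0.86 on the log2 scale (adjusted p = 0.00354). Slc27a2, the most abundant of the list and a fatty acid transporter of the proximal tubule, fell by 0.35 (adjusted p = 0.0135). Genes of these lists other than Soat2, Fabp5, Fabp1 and the most abundant of each list were chosen for naming after their values were seen.

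**Figure D5:**
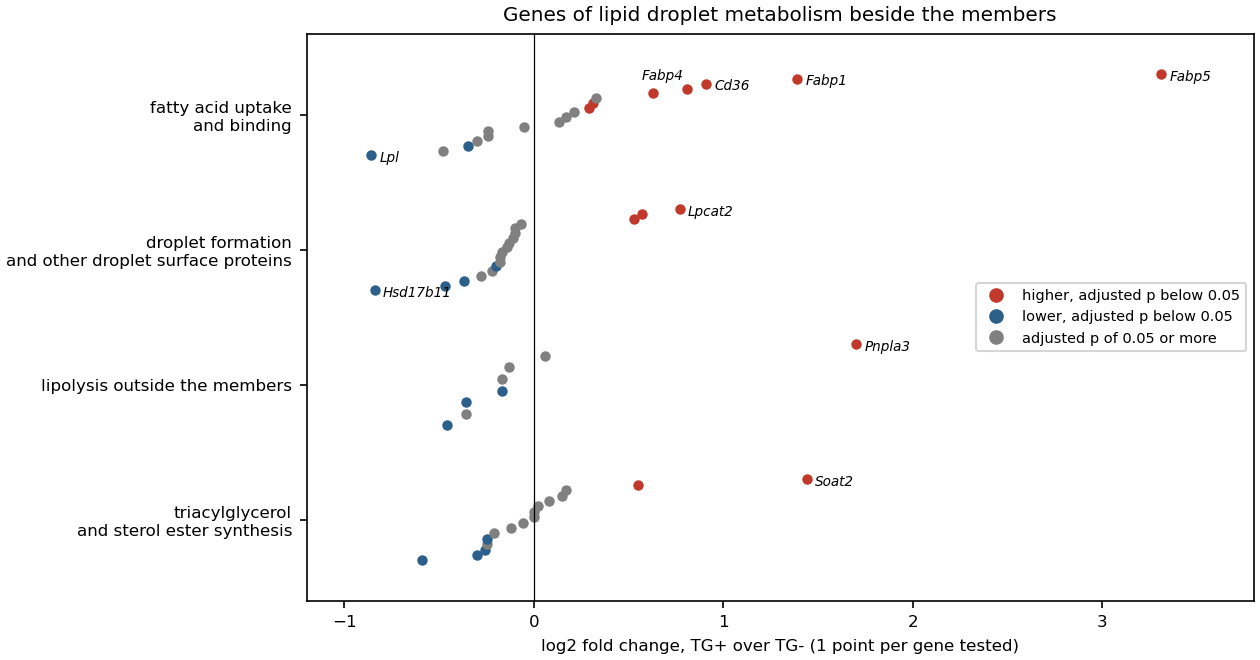
Log2 fold change, TG+ over TG- (horizontal axis), of every tested gene of the 4 lists of lipid droplet metabolism, 1 point per gene, ordered within a list, with genes at an adjusted p below 0.05 in red (higher) or blue (lower). Fabp5 (3.31), Pnpla3 (1.70), Soat2 (1.44) and Fabp1 (1.39) lie farthest to the right, and Lpl (-0.86) and Hsd17b11 (-0.84) farthest to the left.

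The genes with the profile most like that of Hilpda over the 6 mice were sought among 9934 genes with a mean of at least 10 CPM, by the Euclidean distance between log2 CPM profiles centred on their own means. They were Fn1 (distance 0.33), which encodes fibronectin, Tent5a (0.51), Tram2 (0.52), Dlc1 (0.55) and Lhfpl2 (0.61). Fn1 was at 40.6, 51.2 and 57.5 CPM in 43-29, 43-49 and 43-75 and at 23.3, 19.7 and 19.4 in 43-26, 43-50 and 43-76, the same order of mice within TG+ as Hilpda. The genes most like Plin2 were Psat1 (0.22), a serine synthesis enzyme, Cyp4a31 (0.24), of the family of fatty acid ω-hydroxylases, Agmo (0.24), Maoa (0.26) and Limch1 (0.26). Psat1 was at 30.2, 42.7 and 40.8 CPM in the TG+ mice and at 30.2, 45.5 and 31.6 in the TG- mice, highest like Plin2 in 43-50. A gene near either profile shares its difference between the genotypes by the way it was chosen, so no test of these genes is given.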

How the data were processed

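RNAseq of kidney cortex was analysed in 12 libraries, the 2 kidneys of 3 TG+ and 3 TG- mice. Reads of 51 bases from 1 end were processed by the authors mainly with the Tuxedo tools. The genome build in the submitters' processing notes is mm9. The annotation release and the handling of strand are not given in the sources used here. The authors deposited read counts per Ensembl gene without normalization, and RPKM values that are proportional to the count plus 1 and scaled by a method the header calls BUQ. Of the deposited table, 12 columns of log2 RPKM and 14 columns with the authors' group means, fold changes, p-values and q-values were not used.

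From the counts, the 2 kidneys of a mouse were summed and TG+ was compared with TG- in edgeR 4.0.16 (TMM scaling, factors 0.944 to 1.07, filterByExpr, glmQLFit and glmQLFTest). P-values were adjusted by Benjamini-Hochberg over 19399 genes. The SE is the absolute log2 fold change divided by the square root of the F statistic. CPM were normalized by the same factors. RPKM served only to compare genes with each other, with CPM per exonic length as an alternative, since the lengths behind the deposited RPKM are not given. Symbols and positions (GRCm38) came from GENCODE M21, and 32642 of 37681 identifiers matched. No coordinates come from the mm9 build of the reads. The scripts were tested on simulated data.

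The rule for named genes took all 10 members, the genes of each list past the threshold of the study, the most abundant gene of each list, and the 5 genes nearest to Hilpda and to Plin2. Other genes of the lists were named after their values were seen. The members and lists were chosen with earlier results of these data known. Alternatives were DESeq2 1.42.0, no filter, each kidney as a library, a replicate block, other scalings and thresholds, and leaving out each mouse.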

Additional observations from a re-analysis of the deposited data

How the results depend on the processing

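Hilpda passed at an adjusted p below 0.05 under every alternative run. At a fold change above 4 or below 0.25, 0 members were higher. Leaving out 1 mouse gave 0 to 1 members higher at the threshold of the study, and 1 to 2 higher and 1 to 2 lower at any fold. At any fold, 2 members were higher with each kidney as its own library (Hilpda and G0s2, the latter at 0.88, adjusted p = 0.00581 in edgeR) and 2 with scaling by library size alone, where 1 was lower. Scaling by size alone also left 1 gene lower in the list of triacylglycerol and sterol ester synthesis and 1 in that of lipolysis, and gave 0.05 for Plin5 and 0.00 for Agpat3. Without 43-29 and without 43-50, Plin5 was at 0.10 and 0.27, and over all such fits between -0.37 and 0.27. Without the libraries rich in Adipoq, Plin4 was at -0.42. The cause of these changes was not tested.

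The name of the deposited table lists 3 pairs of mice (43-49 with 43-50, 43-26 with 43-29, 43-75 with 43-76). The deviations of paired mice from their group means correlated at 0.296, 0.337 and -0.0236, and 4 of 6 mice correlated best with their own partner. These values do not settle whether the numbers pair the samples, so the main fit has no pairing and the block is given as an alternative. With the replicate block, 3 members were higher at any fold (Hilpda, and Plin1 and Cidec at 2.48 and 2.69, adjusted p = 0.0238 and 0.0308 in edgeR). The block also gave 8 lower genes in the list of droplet formation and 1 gene of lipolysis (Pnpla3) past the threshold of the study. That gene also passed with DESeq2 (1) and with each kidney as its own library (1), where 9 genes of droplet formation and 4 of fatty acid uptake were lower.

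Leaving out 1 mouse gave 1 to 4 lower genes and 0 to 1 gene past the threshold of the study, higher, in the synthesis list. It gave 0 to 1 higher, 1 to 3 lower and 0 to 1 past that threshold in the lipolysis list, and in the uptake list 1 to 2 higher and 0 to 1 lower past it. Of the values for groups of genes, shares and ratios under an alternative, 273 stayed within 1.5 times a count or 1 SD of a share or ratio, and 41 did not. The 273 include counts of 0 that stayed 0, and counts from centring on the median gene, which leaves every p-value as in the main fit. They also include ratio differences from which the gene length cancels, so their number is no measure of stability. Among the 273, the difference in the Plin2 share ran from -0.88 to 3.53 percentage points without 1 mouse. Of the values for single genes, 216 kept their direction and their side of an adjusted p of 0.05 at any fold, 6 newly passed, 9 no longer passed and 5 changed sign.

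With 3 mice a group, only the spread between these animals is measured. Hilpda, Soat2, Fabp1 and Pnpla3 rest on few reads, and Plin1 and Cidec on the 4 libraries rich in Adipoq together with kidney 2 of 43-50 and kidney 1 of 43-75.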
